A study of Mus musculus with 3 samples.

Results

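The oligoadenylate synthetase genes of the mouse were examined in RNA bound to chromatin. Members were taken by gene symbol and were Oas1a, Oas1b, Oas1c, Oas1g, Oas2, Oas3, Oasl1 and Oasl2, which are 8 of the 55536 annotated genes in the tables and 8 of the 46615 whose mean length reached 300 nt. All 8 lie on chromosome 5. The other annotated Oas1 genes are described beside them.

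The cells were bone marrow-derived macrophages of the C57BL/6J strain, exposed for 25 min to Lipid A at 100 ng/ml. Lipid A is the anchor of bacterial lipopolysaccharide and is sensed by TLR4. RNA isolated with chromatin, where unfinished transcripts are enriched, was depleted of ribosomal RNA and sequenced in 3 libraries labelled biological replicates 1, 2 and 3. The labelled RNA amount was 1000 ng for replicate 1, 250 ng for replicate 2 and 500 ng for replicate 3. The labels give the age and sex of the mice as not collected. The 3 libraries carry distinct biosample entries under 1 donor entry, and nothing says that they came from separate animals, so their spread may be partly technical. With 1 group and no untreated sample analysed here, a level says how abundant a transcript was in stimulated cells and not that it was induced.

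Oligoadenylate synthetases bind double-stranded RNA, a product of viral replication, and then join ATP into short oligoadenylate chains. These chains act as a second messenger of antiviral defence. The Oas genes are classic interferon-stimulated genes, and macrophages are known to carry the system ready for use. In the mouse the Oas1 gene has been duplicated several times, while Oas2 and Oas3 encode larger proteins with repeated synthetase units. The Oasl proteins carry ubiquitin-like domains at their C-terminal end.

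Several of the Oas1 genes are set apart or joined by short stretches of sequence, so these are shown first. Oas1b is annotated as a polymorphic pseudogene in GENCODE M21, and its main transcript Oas1b-203 holds an in-frame stop codon, TGA, at codon 253 of 376 annotated codons (chr5:120821308-120821310). At the aligned codon 258 of 367, Oas1a-201 and Oas1g-201 both read CGG. The surrounding 27 bases are given 5′ to 3′ on the strand of each gene, from the GENCODE M21 transcripts (GRCm38), with that codon in capitals.
Oas1b chr5:120821296-120821322 plus strand: gcccagggcttcTGAaccgtcttggaa
Oas1a chr5:120899177-120899203 minus strand: gcccagggcttcCGGaccgtcttggaa
Oas1g chr5:120879204-120879230 minus strand: gcccagggcttcCGGaccgtcttggaa
Outside the capitals the 3 stretches have the same letters. Oas1b is known as the flavivirus resistance gene of the mouse, and common laboratory strains carry a truncated form. Over the whole coding sequence Oas1a and Oas1g were 96.7% identical (1101 aligned columns), against 76.4% for Oas1a and Oas1b, 73.3% for Oas1a and Oas1c and 59.3% for Oasl1 and Oasl2.

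The starts of these genes also carry a shared stretch. RefSeq promoter windows (GRCm38.p6, 250 bases before to 50 after the start) matched 6 members, namely Oas1a, Oas1c, Oas1g, Oas3, Oasl1 and Oasl2. Oas1b and Oas2 had no window of their own. The Oas1b and Oas1c genes point away from each other with their starts 121 bp apart, so the bases before Oas1c, turned round, are also the bases before Oas1b. The 120 bases before each start are given 5′ to 3′ in the direction of the named gene, with matches to the core of the interferon-stimulated response element (GAAA, any 2 bases, GAAA) in capitals.
Oas1a chr5:120907526-120907645 minus strand: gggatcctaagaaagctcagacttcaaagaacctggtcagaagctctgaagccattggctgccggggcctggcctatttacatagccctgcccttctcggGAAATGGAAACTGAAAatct
Oas1g chr5:120887614-120887733 minus strand: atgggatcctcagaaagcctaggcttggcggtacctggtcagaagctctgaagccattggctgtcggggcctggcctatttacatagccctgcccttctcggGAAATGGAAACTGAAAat
Oas1b chr5:120812515-120812634 plus strand: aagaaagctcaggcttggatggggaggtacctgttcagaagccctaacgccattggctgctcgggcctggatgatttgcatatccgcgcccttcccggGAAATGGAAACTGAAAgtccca
Oas3 chr5:120777660-120777779 minus strand: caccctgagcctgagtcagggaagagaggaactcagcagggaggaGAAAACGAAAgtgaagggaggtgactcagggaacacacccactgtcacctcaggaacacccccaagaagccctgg
The same 16 bases, which hold 2 overlapping cores, lay 20 to 5 bases before the RefSeq start of Oas1a, 18 to 3 before Oas1g and 22 to 7 before the GENCODE start of Oas1b. Those 16 bases occurred, on either strand, in 7 of 32851 windows (0.0213%), which were windows of Oas1a, Oas1c, Oas1g, Apol9a and Apol9b. Oas3 held 1 core, 75 to 66 bases before its start. The 120 bases before Oas1a and Oas1g were 88.5% identical over 122 aligned columns, and those before Oas1a and Oas1b 71.1% over 128.

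That core, searched on both strands with overlapping matches counted once per window, was in 4 of the 6 windows and in 3.44% of all 32851. With 1 mismatch it was in 6 of 6 and in 35.4% of all. The gamma-activated site pattern TTCNNNGAA was in 1 of 6 (Oas1a) and in 8.30% of all. A loose NF-κB pattern (GGG, any 5 bases, CC) was in 5 of 6 and in 50.8% of all, and the narrower form (GGG, any 2 bases, TTTCC) in 0 of 6 and in 1.63% of all. TATAAA was in 1 of 6 and in 13.6% of all. That match, in Oasl2, was on the strand opposite to the gene, 187 to 182 bases before the start. No match overlapped a match to another of these patterns within the 6 windows. A match is a string of letters and was not tested for binding.

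All 8 Oas genes were measured in every library, at levels that spanned from Oas1c at 3.68 ± 0.770 TPM to Oasl2 at 244 ± 68.8 TPM (mean ± SD, n = 3, as throughout). TPM is the expected count divided by the effective gene length and scaled to a common total, here over the 46615 genes. Their median mean level was 34.9 TPM, beside 11.5 TPM over the 15332 genes that reached 1 TPM and 1.09 TPM over 21898 protein-coding genes. Oasl2 and Oas2 led, followed by Oas1g, Oas1a and Oas3 within a narrow range, then Oasl1, Oas1b and Oas1c.

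**Figure D1:**
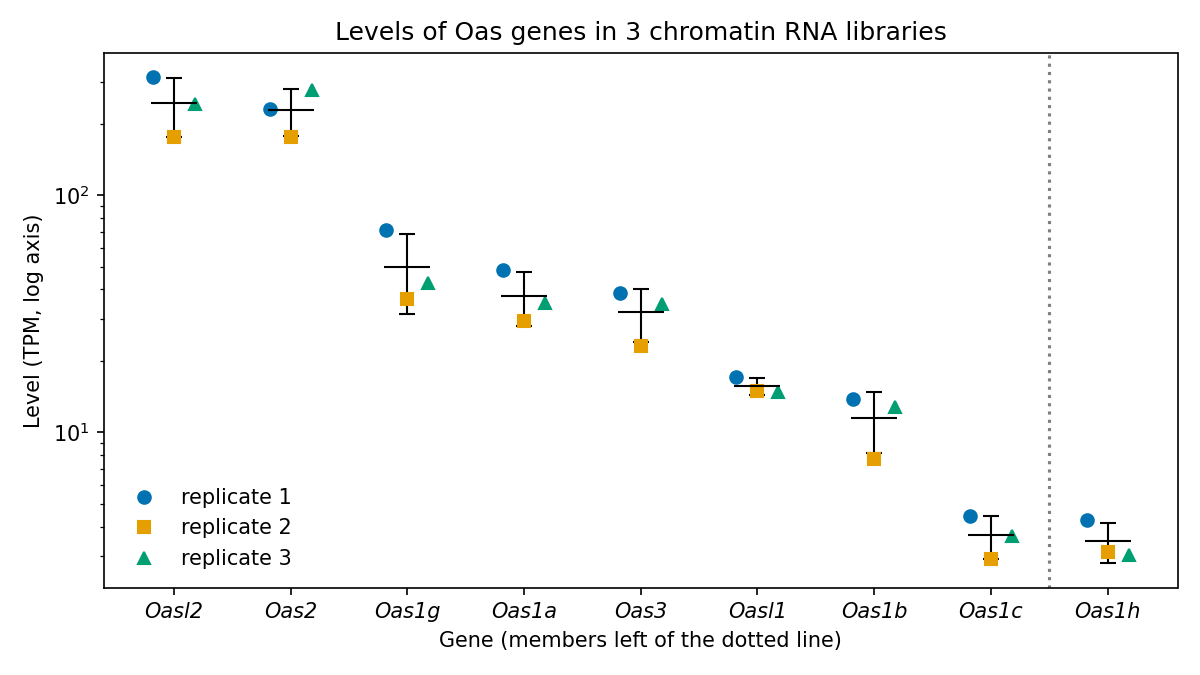
Level of each Oas gene, with Oas1h right of the dotted line, in TPM on a log axis. Points are the 3 libraries, and the bar and whiskers are the mean ± SD. Oasl2 and Oas2 stood at 176 TPM or more in every library, and replicate 2 was lowest for 7 of the 8 members.

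Among the short synthetases, Oas1g and Oas1a encode near-identical enzymes. Oas1g (ENSMUSG00000066861, mm10 chr5:120876142-120887613, minus strand) was at 71.0, 36.3 and 42.5 TPM in replicates 1, 2 and 3, from 491.9, 374.2 and 450.0 expected counts. Oas1a (ENSMUSG00000052776, chr5:120896256-120907521, minus strand) was at 48.3, 29.4 and 35.3 TPM, from 470.1, 443.8 and 506 counts. Both were highest in replicate 1 and lowest in replicate 2, and their ranges overlapped, although Oas1g was above Oas1a within each of the 3 libraries. The log2 ratio was 0.38 ± 0.16, a 1.30-fold difference. As CPM without gene length it was -0.12, so the direction depended on the length estimate.

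That ratio rests on how reads of shared sequence were divided. Of the 31-base words in Oas1a transcripts, 68.7% also occurred in Oas1g, and 54.6% of the words of Oas1g occurred in Oas1a. The posterior SD of the RSEM-type count was the same for both genes, at 8.83, 7.89 and 7.10 counts in the 3 libraries, while it was 0 in every library for 5 of the other members and at most 0.35 for Oas1c. In the second deposited quantification, a kallisto-type table, Oas1g stood 1.98-fold above Oas1a. The order of the pair was the same in both tables and its size was not, so both levels are uncertain.

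Oas1b (ENSMUSG00000029605, chr5:120812635-120824163, plus strand), the polymorphic pseudogene, was at 13.9, 7.70 and 12.8 TPM in replicates 1, 2 and 3, from 80, 81 and 142 counts. Oas1c (ENSMUSG00000001166, chr5:120800194-120812514, minus strand), its divergent neighbour, was the lowest member at 4.46, 2.92 and 3.66 TPM, from 53.9, 55 and 53 counts. Their ranges did not overlap, and Oas1b was 3.00-fold above Oas1c, with a log2 ratio of 1.59 ± 0.21 and the same direction in all 3 libraries. The log2 ratio was 2.73 (6.64-fold) in the kallisto-type table and 0.83 as CPM without gene length, so its size depended on the processing. Oas1c shared 25.2% of its 31-base words with other genes, mostly Oas1e and Oas1d, which had almost no counts.

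Oas1b was also the member on which the quantifications differed most. The kallisto-type table placed it at 27.7, 13.9 and 20.96 TPM, which is 2.00, 1.81 and 1.64 times the RSEM-type level in replicates 1, 2 and 3. The median of that ratio over the 15332 genes was 0.980, with 5% of genes below 0.603 and 5% above 3.73. Apart from Oas1b, the ratio of mean levels was between 0.661 (Oas2) and 1.07 (Oas1g) for the members.

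**Figure D2:**
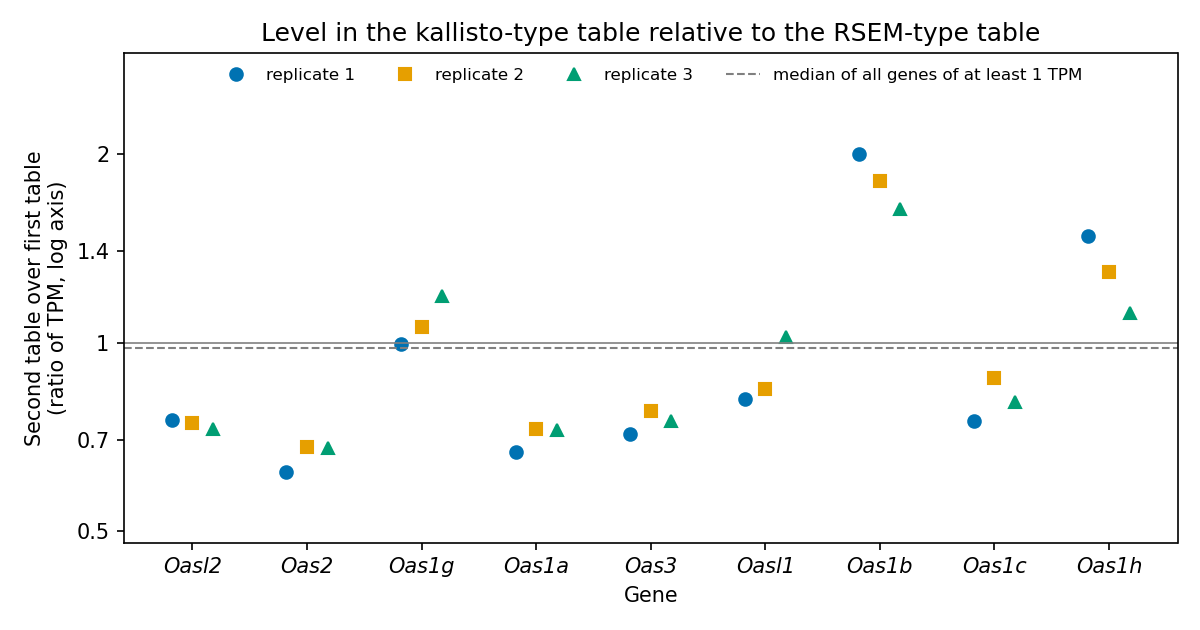
Ratio of the level in the kallisto-type table to that in the RSEM-type table for each gene and library, on a log axis. Oas1b lay between 1.64 and 2.00, while Oas2, Oas1a, Oas3, Oasl2 and Oas1c lay below 1 in every library.

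The larger synthetases differed in level. Oas2 (ENSMUSG00000032690, chr5:120730333-120749853, minus strand) was at 230.3 TPM in replicate 1, 176.0 in replicate 2 and 278.2 in replicate 3, from 4705, 5482 and 8266 counts, the most of any member. Oas3 (ENSMUSG00000032661, chr5:120753098-120777661, minus strand), whose human counterpart prefers long double-stranded RNA, was at 38.5, 23.1 and 34.7 TPM, from 613, 652 and 1028 counts. Oas2 was 7.12-fold above Oas3, with a log2 ratio of 2.83 ± 0.23, and the ranges lay far apart. Oas2 was the only member highest in replicate 3. A gene of undetermined coding status, Gm43068, overlaps Oas2 on the other strand and had 71, 44 and 40 counts. Of 4441 31-base words in the annotated Oas2 transcripts, 0 occurred in another gene on either strand. The sources used here give no strand setting for the counting, so reads from Oas2 introns and reads of Gm43068 cannot be told apart.

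The Oasl pair also differed in level. Oasl2 (ENSMUSG00000029561, chr5:114896936-114912234, plus strand), which in the mouse has kept synthetase activity, was at 313.7, 176.1 and 242.8 TPM in replicates 1, 2 and 3, from 2560, 2110 and 2929 counts. Oasl1 (ENSMUSG00000041827, chr5:114923240-114937915, plus strand), which lacks that activity and in the mouse restrains translation of the interferon regulator Irf7, was at 17.2, 14.97 and 14.9 TPM, from 111, 124 and 136 counts. Oasl2 was 15.1-fold above its neighbour, with a log2 ratio of 3.92 ± 0.33 and no overlap. Oasl1 varied least among the 8, with a coefficient of variation of 8.38%, against 20.9% to 37.1% for the others.

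The order of the 8 levels held beyond the spread for some neighbours and not for others. Oasl2 and Oas2 overlapped and changed places between libraries, with a log2 ratio of 0.08 ± 0.33 and Oasl2 higher in 2 of 3. Without replicate 1, Oas2 was above Oasl2, at 227 against 209 TPM. Oas2 was 4.68-fold above Oas1g with no overlap. Oas1g, Oas1a and Oas3 overlapped one another in turn, with log2 ratios of 0.38 ± 0.16 and 0.23 ± 0.18. Oas3 was 2.00-fold above Oasl1 with no overlap, and Oasl1 lay above Oas1b by 0.49 ± 0.40 log2 units with no overlap. In the kallisto-type table Oas1b was the higher of those 2 genes, at 20.9 ± 6.88 against 13.9 ± 1.26 TPM. An exact two-sided sign-flip permutation test of the ratio cannot go below p = 0.25 with 3 libraries. It gave 0.25 for the 6 neighbouring pairs with the same direction in every library and 0.75 for Oasl2 and Oas2.

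The 6 Oas members outside the Oasl pair lie in a cluster of 191.3 kb with 4 further Oas1 genes, and the levels changed abruptly along it. Oas1h was at 4.26, 3.13 and 3.06 TPM, close to Oas1c, from 37, 42 and 39 counts. Oas1e had 1 count in each library, Oas1f had 1 count in replicate 2 alone and Oas1d had none. With no counts, up to 3 counts remain possible, which in replicates 1, 2 and 3 is 0.222, 0.156 and 0.156 CPM, a count relative to the library total, for counting error only. Oas1d is known from the mouse ovary. The protein-coding genes that flank the cluster were nearly silent, Dtx1 at 0.0582 ± 0.0538 TPM and Rph3a at 0.0188 ± 0.0326 TPM. The Oasl pair, 40.98 kb in length, had 4930519G04Rik at 0.0289 ± 0.04998 TPM on one side and 2210016L21Rik at 5.39 ± 2.12 TPM on the other.

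**Figure D3:**
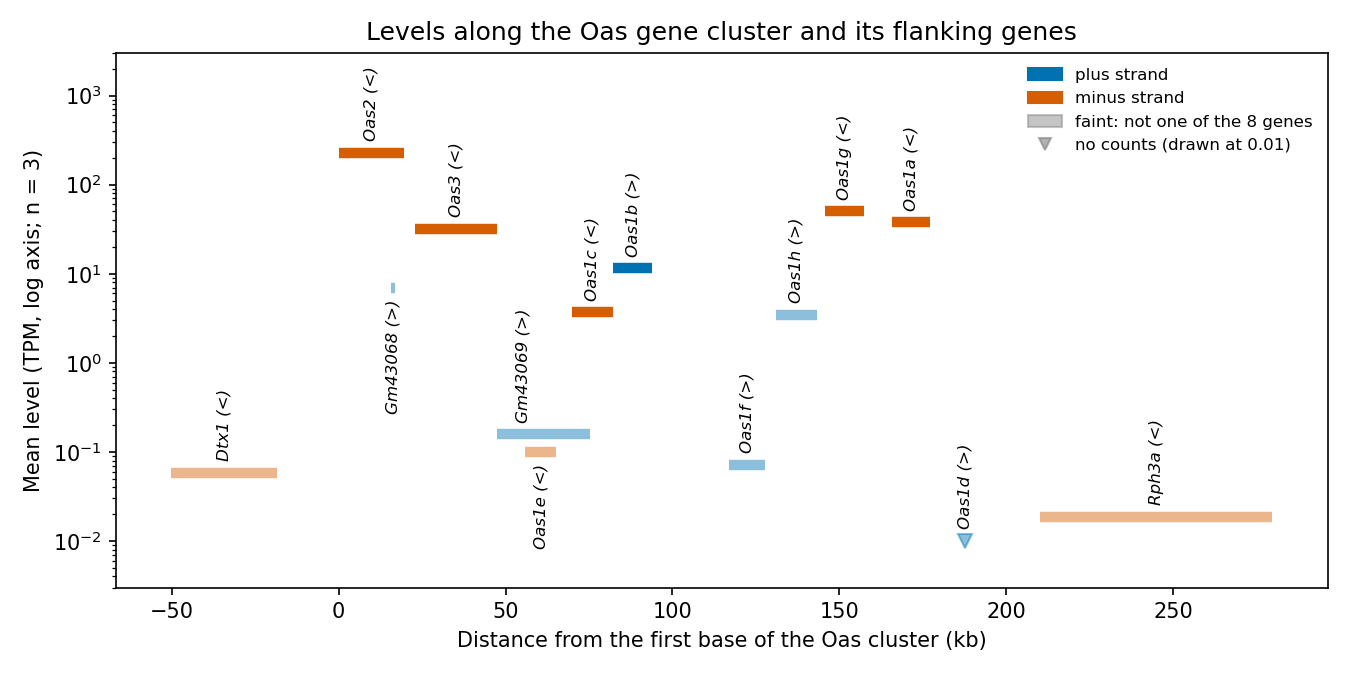
Mean level (TPM, log axis, n = 3) of the genes of the Oas cluster against distance from its first base, with arrows and colours for the strand. Each line spans a gene, faint lines are not among the 8 members, and Oas1d, with no counts, is drawn at 0.01. Active members sit beside Oas1 genes with at most 1 count per library and between flanking genes below 0.1 TPM.

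The transcript types of the annotation divided the members. GENCODE M21 lists 33 transcripts of the 8 genes, of which 16 are protein coding, 9 are retained-intron models, 5 are processed transcripts, 2 are targets of nonsense-mediated decay and 1 is the polymorphic pseudogene. A retained-intron model is a spliced transcript that keeps at least part of an intron. The shares below are percent of a gene's RSEM-type transcript counts, an estimate that divides reads among models with shared exons. RNA bound to chromatin also holds unfinished transcripts. Reads from introns not yet removed cannot be told apart here from reads of models that keep intron sequence, and their part was not tested.

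Oas2 was almost wholly assigned to coding models, at 98.3 ± 0.844%. Oas2-201 held 3592, 4214 and 6381 counts in replicates 1, 2 and 3, and Oas2-202, which encodes 751 codons in place of 742, held 1037, 1074 and 1630. The share of Oas2-201 was 76.8 ± 0.427% and that of Oas2-202 20.5 ± 1.38%, steady across libraries in the RSEM-type table. In the kallisto-type table they were 59.2 ± 3.07% and 37.7 ± 3.83%, so the split between these 2 models depended on the quantification. The kallisto-type table also gave Oas2 few retained-intron counts, 0.932 ± 0.169% against 1.73 ± 0.844% in the RSEM-type table.

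Oasl2 was the opposite case, with 17.7 ± 1.08% of its counts on coding models. Its retained-intron models took 51.0%, 40.3% and 37.2% in replicates 1, 2 and 3. The decay target Oasl2-205 took 30.1%, 42.6% and 45.9%. The retained-intron share was thus highest, and the decay share lowest, in replicate 1. A single retained-intron model, Oasl2-208, held 877, 455 and 624 counts, while the full-length coding model Oasl2-201 held 468.6, 358.7 and 496.2.

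Oas1g split 3 ways, with 48.5 ± 4.34% on the decay target Oas1g-203, 38.2 ± 3.16% on the coding Oas1g-201 and 13.3 ± 2.97% on a retained intron. Oas1g-203 encodes 234 codons, against 367 in Oas1g-201. The kallisto-type table moved counts within the gene, to 46.5 ± 0.606%, 24.7 ± 2.64% and 28.8 ± 2.04% in the same order, so the retained-intron share of Oas1g depended on the quantification. Oas1a has 1 annotated transcript and therefore 100% coding counts, which is a property of the annotation.

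Oas3 was 82.5 ± 7.06% coding, and its retained-intron share was 25.3%, 15.6% and 11.5% in replicates 1, 2 and 3, highest in replicate 1 like that of Oasl2. Oasl1 held a steady retained-intron share of 33.3%, 32.6% and 34.4%. For Oas1b the pseudogene model Oas1b-203, which carries the stop codon shown above, took 82.4%, 90.4% and 93.6% of the counts. Its protein-coding model, Oas1b-201, had 0 counts in all 3 libraries in both tables, and the rest went to a processed transcript. Oas1b-201 encodes 251 codons, against 376 annotated in Oas1b-203, so it is not a full-length form. The posterior SD of the RSEM-type count was 5.24, 5.26 and 13.1 for Oas1b-201 and 5.49, 5.39 and 13.1 for Oas1b-203, so the split between these models is uncertain.

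Retained-intron shares of the members spread across the range of other genes. With at least 50 counts in every library and a retained-intron model annotated, 5626 genes had a median share of 26.1% and quartiles of 10.2% and 50.1%. The 5 members that met these conditions had a median of 17.5%. It was 28.8% with kallisto-type counts, for which no median over all genes is given, so that value cannot be set against the 26.1%. Oas2 stood at percentile 5.44, Oas1g at 31.1, Oas3 at 37.5, Oasl1 at 58.3 and Oasl2 at 68.6. Oas1a, Oas1b and Oas1c have no retained-intron model.

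**Figure D4:**
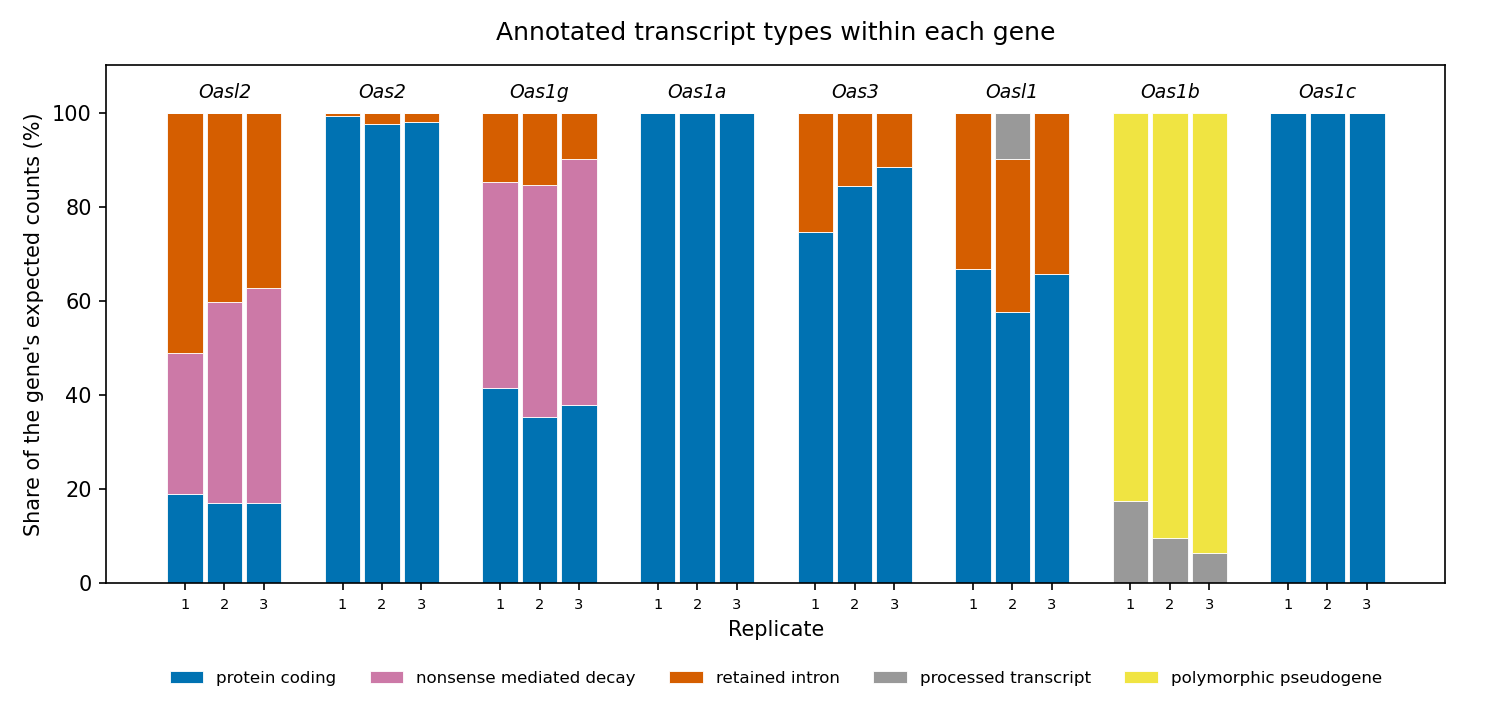
Share of each gene's expected counts (%) by annotated transcript type, 1 bar per library. Oas2, Oas1a and Oas1c were nearly or wholly coding, Oasl2 was mostly retained intron and decay target, and Oas1b mostly pseudogene model.

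Most members shared their order of libraries on the TPM scale. Replicate 1 was highest for 7 of the 8 and replicate 2 lowest for 7. This order was not particular to the members. The 9 macrophage markers had medians of 293, 189 and 196 TPM in replicates 1, 2 and 3. Medians of the 10 sensors and effectors of double-stranded RNA were 96.9, 55.9 and 69.2 TPM. Those of the 18 markers of other cells were instead lowest in replicate 1, at 0, 0.0306 and 0.0569 TPM. The share of all genes with this order was not counted. Summed over the 8 genes, the level was 737, 466 and 665 TPM in replicates 1, 2 and 3. The libraries differed in composition as well, since 3 genes of a ribosomal DNA locus (Gm26917, Gm42418 and CT010467.1) held 7.85%, 27.2% and 23.8% of the TPM in the same order. Scaled without those 3 genes, replicate 1 stayed highest for Oas1a, Oas1c, Oas1g and Oasl2, replicate 3 became highest for Oas1b and Oas3 and stayed so for Oas2, and replicate 2 became highest for Oasl1. Oas2 was then at 249.9, 241.6 and 364.9 TPM and Oasl2 at 340.4, 241.7 and 318.5. The part of the ribosomal share in the other differences was not tested.

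The libraries held 13525994, 19230763 and 19207049 expected counts, and the Oas genes took 0.0672%, 0.0485% and 0.0703% of them. The labelled cell type was checked with markers. The 9 macrophage markers were all above 1 TPM (median 226 TPM), led by Csf1r at 535 ± 152 TPM. Of 18 markers listed for other cells, 2 reached 1 TPM, Pf4 at 33.7 ± 15.1 TPM and Kit at 1.71 ± 0.751 TPM. Which cells made the Pf4 RNA was not tested. Of the 18, 6 had no counts in any library, among them Cd3e, Ly6g and Epcam. Summed, the 18 were at 24.6, 53.6 and 37.3 TPM in replicates 1, 2 and 3, highest where the Oas sum was lowest, and their part in the Oas levels was not tested. Pf4 alone made 19.6, 49.7 and 31.6 TPM of that sum and was lower with more labelled RNA in the fit described next (-0.86 log2 units per doubling, SE 0.251, edgeR adjusted p = 0.0319). In bulk RNA, fewer cells of a type and less RNA per cell cannot be told apart.

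The labelled RNA amount is the recorded difference between the libraries, so a slope on its log2 was fitted to all genes with the edgeR quasi-likelihood test on rounded expected counts. Each amount had 1 library, so amount and replicate cannot be told apart, and 1 degree of freedom was left for the spread. The test therefore borrows most of its estimate of spread from other genes. Its p-values do not measure the spread of a single gene over the 3 libraries. Nor do the SEs, which are the size of the slope divided by the square root of F. Of 13993 genes tested, 1032 (7.38%) were called at a Benjamini-Hochberg adjusted p under 0.05, of which 633 (4.52%) were higher and 399 (2.85%) lower with more RNA. None of the 8 Oas genes was called by edgeR. EdgeR on kallisto-type counts, which called 1.68% of all genes, also called 0 of the 8. DESeq2, which called 4.81% of the 8024 genes to which it gave an adjusted p, called 0 of the 5 members among them and gave none to Oas1b, Oas1c and Oasl1. A count of 0 of the 8 also came from edgeR with other size factors (7.1% of all genes called), without a count filter (4.87%), with entries of any length (6.84%) and without 3 genes of the ribosomal locus (6.52%). At an unadjusted p under 0.05, 2 of the 8 passed in edgeR, beside 3231 of all 13993.

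Oas1g had the largest member slope, 0.33 log2 units per doubling (SE 0.147, edgeR adjusted p = 0.165), from 33.6, 21.2 and 24.7 normalised CPM in replicates 1, 2 and 3. Oasl2 followed at 0.27 (SE 0.131, edgeR adjusted p = 0.202), from 175, 120 and 161. Both were highest in the 1000 ng library and lowest in the 250 ng library. Oas1a had a slope of 0.18 (SE 0.146), Oas1b 0.13 (SE 0.239) and Oas1c 0.12 (SE 0.240). Oas3 had 0.09 (SE 0.159), Oasl1 0.05 (SE 0.205) and Oas2 0.02 (SE 0.147). Fitted slopes were above 0 for all 8, with a median of 0.12, beside 6800 above 0 and a median of -0.01 among all 13993 genes.

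For 4 of them the sign depended on which library was left out. Without replicate 1 and without replicate 2, as values with no test, the slope was 0.54 and -0.50 for Oas2, 0.61 and -0.43 for Oas3, and 0.75 and -0.50 for Oas1b. For Oas1c it was -0.10 and 0.33. For Oasl2 it kept its sign, at 0.43 and 0.12. Oas2 at 322, 311 and 454 normalised CPM was thus lowest at 250 ng and highest at 500 ng, with 1000 ng close to the lowest.

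Other interferon-stimulated genes were read from the same fit. Of 25 listed and tested, 12 were called higher with more RNA and 0 lower, beside 4.52% and 2.85% of all genes tested. The median slope of the 25 was 0.45. Gbp5, a guanylate-binding protein, led at 1.77 (SE 0.134, edgeR adjusted p = 8.61e-11), from 689.9, 59.7 and 172.8 normalised CPM. Gbp2 followed at 1.32 (SE 0.148, edgeR adjusted p = 5.33e-07), from 68.1, 11.1 and 21.5. Mx1, which blocks influenza virus in mice with an intact allele, was the lowest of those called, at 0.40 (SE 0.127, edgeR adjusted p = 0.0474). Those not called ran from -0.22 (Trim25) to 0.66 (Ifi47), a range that holds the Oas slopes. The difference between this list and the Oas genes was not tested.

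**Figure D5:**
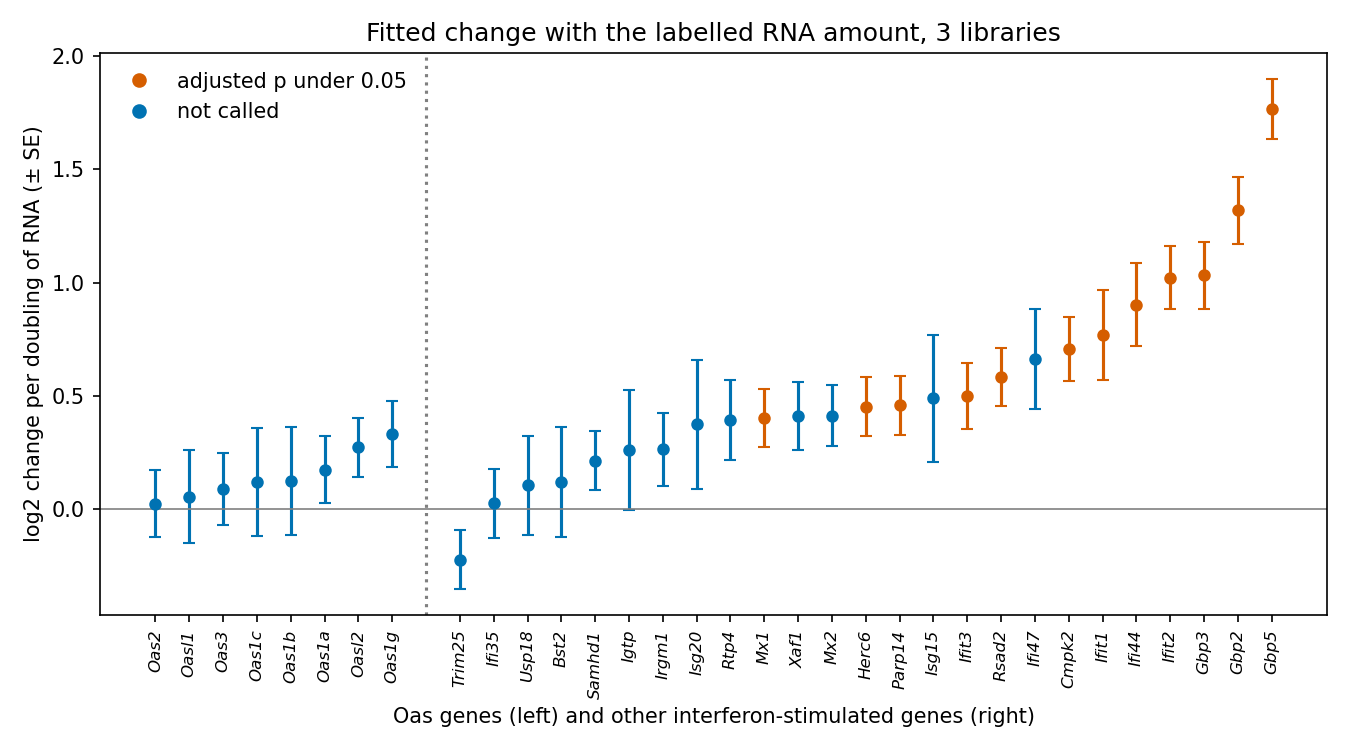
Fitted log2 change per doubling of labelled RNA, with its SE, for the 8 Oas genes and for 25 other interferon-stimulated genes. The Oas slopes lie between 0.02 and 0.33 and none was called, while in the other list the called genes lie between 0.40 and 1.77 and those not called, between -0.22 and 0.66, overlap the Oas range.

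By library profile, the listed interferon-stimulated genes nearest to the members were Igtp, Irgm1 and Bst2. The measure was the Euclidean distance between mean-centred log2(TPM + 1) values over the 3 libraries, against the median profile of the members, which was 0.29, -0.37 and 0.02. Igtp, an immunity-related GTPase, lay at 0.0673, Irgm1 of the same family at 0.179 and Bst2, the virus tether tetherin, at 0.203, while Gbp5 lay farthest at 2.32. Igtp was the lowest of that list by mean level, from 36.67, 31 and 38.25 counts in replicates 1, 2 and 3, so its profile is imprecise. The profiles were not rescaled without the ribosomal locus genes. With 3 libraries this is a description.

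Genes that act on oligoadenylates or beside the synthetases were expressed. Abce1, known as a ribosome recycling factor, was at 23.4, 21.2 and 21.1 TPM in replicates 1, 2 and 3. Pde12, a phosphodiesterase that degrades oligoadenylates, was at 12.8, 6.42 and 7.03 TPM. Akap7, which in the mouse can also degrade them, was at 41.6, 17.6 and 27.0 TPM, and the helicase Dhx36 at 52.7, 40.0 and 39.4. On the TPM scale these 4 were highest in replicate 1, while as normalised CPM Abce1 was lowest there, at 25.6, 27.5 and 29.1. None of the 4 was called with RNA amount by edgeR, beside 7.38% of all genes tested. At an unadjusted p under 0.05, 2 of the 4 passed, beside 3231 of all 13993 genes. They were Akap7 at 0.36 (SE 0.169) and Pde12 at 0.30 (SE 0.144).

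Sensors that share the ligand of the synthetases were likewise present. All 10 listed sensors and effectors of double-stranded RNA were above 1 TPM (median 75.8 TPM). The highest were Adar, the adenosine deaminase that edits double-stranded RNA, at 149 ± 13.7 TPM, the kinase gene Eif2ak2 (PKR) at 142 ± 60.4, and Ddx58 (RIG-I) at 120 ± 53.7. The lowest were the adaptor Ticam1 at 11.6 ± 2.71 TPM and the receptor Tlr3 at 4.26 ± 2.65. With RNA amount, 2 of the 10 were called higher by edgeR and 0 lower, beside 4.52% and 2.85% of all genes tested. The 2 called were Ifih1 (MDA5) at 0.52 (SE 0.132, edgeR adjusted p = 0.0129) and Zbp1 at 0.49 (SE 0.148, edgeR adjusted p = 0.0380).

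Genes of interferon signalling were expressed. Of 12 interferon signalling genes, 11 were above 1 TPM (median of all 12, 96.6 TPM). Irf1, a transcription factor, was highest at 2827, 1060 and 1583 TPM in replicates 1, 2 and 3, followed by Stat2 at 248.9 ± 25.3 TPM and Irf3 at 217 ± 38.5 TPM. Irf9, the DNA-binding partner of the STAT proteins, was at 45.6 ± 5.29 TPM and the feedback inhibitor Socs1 was lowest at 0.556 ± 0.163 TPM. Irf1 was the gene called with RNA amount among the 11 tested, at 0.64 (SE 0.133, edgeR adjusted p = 0.00221), beside 7.38% called of all genes tested.

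Ifnb1, the type I interferon of stimulated macrophages, had 0 counts in all 3 libraries in both tables, which in the RSEM-type table allows up to 0.222, 0.156 and 0.156 CPM. Of 17 type I interferon genes in that table, 14 had no counts in any library. Ifnk was highest with 26, 4 and 16 counts (7.48, 0.777 and 3.25 TPM), and Ifnz had 1, 2 and 1. Ifna12 had a single count, in replicate 2. The kallisto-type table instead placed Ifna16 at 11.2, 7.01 and 8.78 TPM, above Ifnk there at 3.82 ± 2.53 TPM, while the RSEM-type table gave Ifna16 no counts, so the levels of the ligands depended on the quantification. The most abundant of the 25 other interferon-stimulated genes were Trim25 at 437 ± 41.4 TPM, Parp14 at 422 ± 194 and Samhd1 at 387 ± 135, and the lowest were Isg20 at 4.01 ± 2.39 and Igtp at 2.65 ± 0.796. Their median of 36.3 TPM lay near the 34.9 TPM of the Oas genes, and without replicate 1 the medians were 21.3 and 30.6 TPM.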

How the data were processed

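Ribosome-depleted chromatin RNA of 3 libraries of 1 group was used, with groups, replicate numbers and RNA amounts from the labels. The authors deposited gene and transcript tables of expected counts, TPM, lengths and posterior SD with RSEM's column names, and transcript tables of estimated counts and TPM with kallisto's, per the file headers. The authors' TPM are relative to every entry of a table, small RNAs included, and were deposited so. The readme files give mm10 and annotation M21. The sources used here give no aligner, version, strand setting or filter. No per-sample value column went unused (0).

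Levels were expected counts over effective length, scaled over genes of at least 300 nt, since the entries so left out held 67.1%, 62.1% and 61.7% of each library's deposited TPM. No control was analysed. Log2 ratios used TPM + 0.1. Means ± SD are over 3 libraries, and intervals and floors (3 counts) cover counting error only. No libraries were identical: the median absolute log2 ratio over 9743 genes was 0.390 for replicates 1 and 2, 0.342 for 1 and 3 and 0.162 for 2 and 3.

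The RNA amount slope was fitted with edgeR 4.0.16 (TMM factors 1.11, 0.931 and 0.964, filterByExpr, quasi-likelihood F test, Benjamini-Hochberg) in R 4.3.3, with counts rounded first. The fit was tested on simulated data. At a dispersion of 0.02 it recovered 38 of 200 genes changed by 0.5 log2 units per doubling and 191 changed by 1. At a dispersion of 0.1 it recovered 0 and 26. The common dispersion of the data was 0.0264. Sequence comparisons used Biopython 1.88 in Python 3.11.15, and DESeq2 1.42.0, the kallisto-type table, other scalings and leaving out each replicate were tried as alternatives.

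The members, lists and tests were chosen with earlier results of these data known. Named genes were the 8 members, the other Oas1 genes, Ifnb1, 3 genes from the top and 2 from the bottom of each list by level, the flanking genes and the 3 nearest profiles. Others were added after their values were seen. For the marker lists some of the named genes are not printed, and 1 partner gene is not reported here.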

Additional observations from a re-analysis of the deposited data

How the results depend on the processing

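Limits were 3 libraries of 1 group, no test that could pass 0.05 for an order of levels, and 1 residual degree of freedom for RNA amount, which the replicates cannot be told apart from. No paired analysis was possible because the 3 libraries form 1 group. The median member level, 34.9 TPM, was 12.5 with the deposited TPM and 25.1 with the kallisto-type table, and 30.6 to 39.2 when 1 library was left out. Of 28 gene pairs, 27 kept their order with the kallisto-type table, 24 as CPM without gene length and 27 to 28 when 1 library was left out. With the deposited TPM 28 kept it, but those values differ in the scale of each library. That setting leaves ratios within a library unchanged by construction and is no separate check of the order. The reversed log2 ratios were Oasl2 over Oas2 at -1.25, Oas1g over Oas1a at -0.12 and Oas1a over Oas3 at -0.65 without gene length, which removes length by construction, Oasl2 over Oas2 at -0.10 without replicate 1 (-0.10 to 0.22 when each library was left out), and Oasl1 over Oas1b at -0.53 in the kallisto-type table, where the cause was not tested. The median retained-intron share, 17.5%, was 29.0% as a share of transcript TPM and 28.8% with kallisto-type counts, and 13.6% to 20.4% when 1 library was left out. Genes called higher and lower with RNA amount numbered 633 and 399, against 280 and 106 with DESeq2 and 262 and 107 with kallisto-type counts. The slope of Oas2 was -0.0076 with kallisto-type counts. Across edgeR with other size factors, no count filter, genes of any length, kallisto-type counts, DESeq2 and the fit without the 3 ribosomal locus genes, 0 Oas genes were called, although DESeq2 gave an adjusted p to 5 of the 8. That last fit and the matching scaling were added after seeing the data. The narrower NF-κB pattern was in 0 windows in place of 5. Of the values for single genes under other settings, 175 were classed as the same, 37 as moved and 6 as reversed. For log2 ratios and refitted slopes, the same meant an unchanged direction and call, whatever the size. Oas2 over Oas1g was so classed at 3.77 without gene length, against 2.23 as reported. Among the first 2 counts are the untested slopes of Oas1b, Oas1c, Oas2 and Oas3, which changed sign when 1 library was left out. Depth limited Oas1b, Oas1c and Oasl1 most, with 53 to 142 counts per library.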
